A study of Homo sapiens with 3 samples.

Results

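Cholesterol and fatty acid synthesis was followed through 33 genes, fixed by name, of the 22613 genes listed in each library. They were 16 enzymes of sterol synthesis, 12 enzymes of fatty acid synthesis and 5 genes of the sterol regulatory element-binding protein (SREBP) system that controls both. Of these, 32 were found under the symbol as given, and SC5DL was found as SC5D, a synonym in RefSeq. The samples were LNCaP-abl cells, which derive from the prostate cancer line LNCaP and grow without androgen, kept in medium without phenol red and in serum stripped of steroids by charcoal. RNA was taken 72 h after lipid transfection of a pool of siRNAs against the transcription factor E2F1 (siE2F1, 1 library) or of control siRNA (2 libraries, control 0 and control 1). Every library thus shared the transfection and the steroid-depleted medium, and the siE2F1 library had no replicate. Whether the controls were separate cultures was not stated, so a p-value here reflects the spread of 2 libraries that may differ only technically. The study asked how gene expression differs once E2F1 is silenced.

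Cells make cholesterol from acetyl-CoA through mevalonate, squalene and lanosterol, and they make fatty acids from the same precursor through malonyl-CoA. Both routes are switched on by SREBPs, membrane-bound transcription factors that the escort protein SCAP carries from the endoplasmic reticulum to the Golgi when sterols are low, while INSIG proteins hold the complex back when sterols are plentiful. SREBF2 acts mainly on sterol genes and SREBF1 mainly on fatty acid genes. In prostate cancer the lipid-synthesis enzymes are known as androgen-responsive genes, and FASN is often highly expressed.

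Silencing was visible in E2F1 itself, which was at 10.6 FPKM in each control and 1.68 FPKM in siE2F1. FPKM is a level in sequenced fragments corrected for gene length and library size. By limma the log2 fold change of E2F1 was -2.12 (standard error 0.0605, adjusted p = 0.0311), and the call was not made with a pseudocount of 0.1 (adjusted p = 0.0601) or with no filter on low genes (adjusted p = 0.159). All fold changes here are differences of log2(FPKM + 1), which understate the change of low genes. In the lists of cell type markers, 8 of 10 genes of luminal prostate epithelium and the LNCaP line averaged 1 FPKM or more, with sums of 959, 965 and 1028 FPKM in control 0, control 1 and siE2F1. Both KLK3 and KLK2, which androgen drives, stayed below 1 FPKM in all 3 libraries. Of the markers of other cells, values were given for 1 of 3 basal, 1 of 3 fibroblast, 1 of 3 endothelial and 3 of 3 adipocyte genes. None of these reached a mean of 1 FPKM, and KRT14, a basal keratin and the only basal gene with a value, was at 0. Markers without a value could not be judged. A leukocyte marker, CD68, was at 5.47, 5.29 and 5.67 FPKM. The summed markers of leukocytes (2 of 3 with a value) were at 6.31, 6.44 and 6.09 FPKM, and those of the other types at no more than 1.14 FPKM in any library. In bulk RNA, fewer cells of a type and less RNA per cell cannot be told apart.

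Stretches of promoter are shown for some of the genes discussed below, because most sterol genes shared a feature that the choice of the 33 genes did not use. The windows run from 250 bases before to 50 bases after the transcription start, are from RefSeq on GRCh38.p14, and were found for 30 of the 33 genes. FDFT1, SQLE and FASN were not matched. The first window listed for each gene was searched on both strands for the CCAAT box (CCAAT), the E-box (CACGTG), the sterol regulatory element (TCACNCCAC), the GC box (GGGCGG) and an E2F site (TTTCCCGC, TTTCGCGC, TTTGCCGC or TTTGGCGC), and overlapping matches were counted for each motif. Each line gives the 120 bases from 160 to 41 bases before the start, 5′ to 3′ on the strand of the gene, and capitals mark a CCAAT box, an E-box, a sterol regulatory element or an E2F site on either strand. They lie at chr5:43313453-43313572 (minus strand, HMGCS1), chr11:121292611-121292730 (plus, SC5DL), chr4:165327509-165327628 (plus, MSMO1), chr22:41832945-41833064 (plus, SREBF2), chr2:118088311-118088430 (plus, INSIG2), chr17:37406877-37406996 (minus, ACACA) and chrX:109733298-109733417 (minus, ACSL4).
HMGCS1: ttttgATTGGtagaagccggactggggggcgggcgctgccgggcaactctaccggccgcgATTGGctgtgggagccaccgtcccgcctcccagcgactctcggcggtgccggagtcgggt
SC5DL: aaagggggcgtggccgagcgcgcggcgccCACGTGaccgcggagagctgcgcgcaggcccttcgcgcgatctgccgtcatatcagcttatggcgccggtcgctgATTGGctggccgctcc
MSMO1: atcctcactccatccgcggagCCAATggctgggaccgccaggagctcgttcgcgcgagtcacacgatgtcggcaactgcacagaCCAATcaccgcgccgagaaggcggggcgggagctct
SREBF2: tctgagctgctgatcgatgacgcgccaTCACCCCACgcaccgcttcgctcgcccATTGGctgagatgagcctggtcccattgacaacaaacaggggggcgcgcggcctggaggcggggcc
INSIG2: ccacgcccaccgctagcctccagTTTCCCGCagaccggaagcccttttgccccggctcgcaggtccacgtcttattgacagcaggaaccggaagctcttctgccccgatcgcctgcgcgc
ACACA: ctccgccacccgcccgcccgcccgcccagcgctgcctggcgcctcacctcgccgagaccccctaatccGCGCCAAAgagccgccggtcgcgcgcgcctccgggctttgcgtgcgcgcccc
ACSL4: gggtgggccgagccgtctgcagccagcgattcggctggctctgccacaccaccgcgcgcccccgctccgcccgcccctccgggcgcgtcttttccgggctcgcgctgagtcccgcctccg

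A CCAAT box was present in 11 of 14 sterol enzyme windows, in 2 of 5 regulator windows and in 4 of 11 fatty acid enzyme windows, against 34.6% of all 35116 windows and 34.7% of the 22199 windows of protein-coding genes. The sterol genes that held one were HMGCS1, MVK, MVD, FDPS, LSS, MSMO1, NSDHL, HSD17B7, EBP, SC5DL and DHCR7. Several held more than 1, as the pair in HMGCS1 and the pair in MSMO1 show. A GC box was found in 13, 5 and 8 of these windows (45.0% of all windows, 56.3% of protein-coding ones). The sterol regulatory element in this spelling was matched only in SREBF2 among the 30 first windows (1.13% of all windows). An E-box was matched in LSS, SC5DL, INSIG1, SCAP and ELOVL5 (7.26% of all windows). The E2F site was matched in MVK, INSIG2 and ACACA (3.31% of all windows). A match describes these letters and is not a bound site, and the map of motif positions shows where each one lies.

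**Figure D1:**
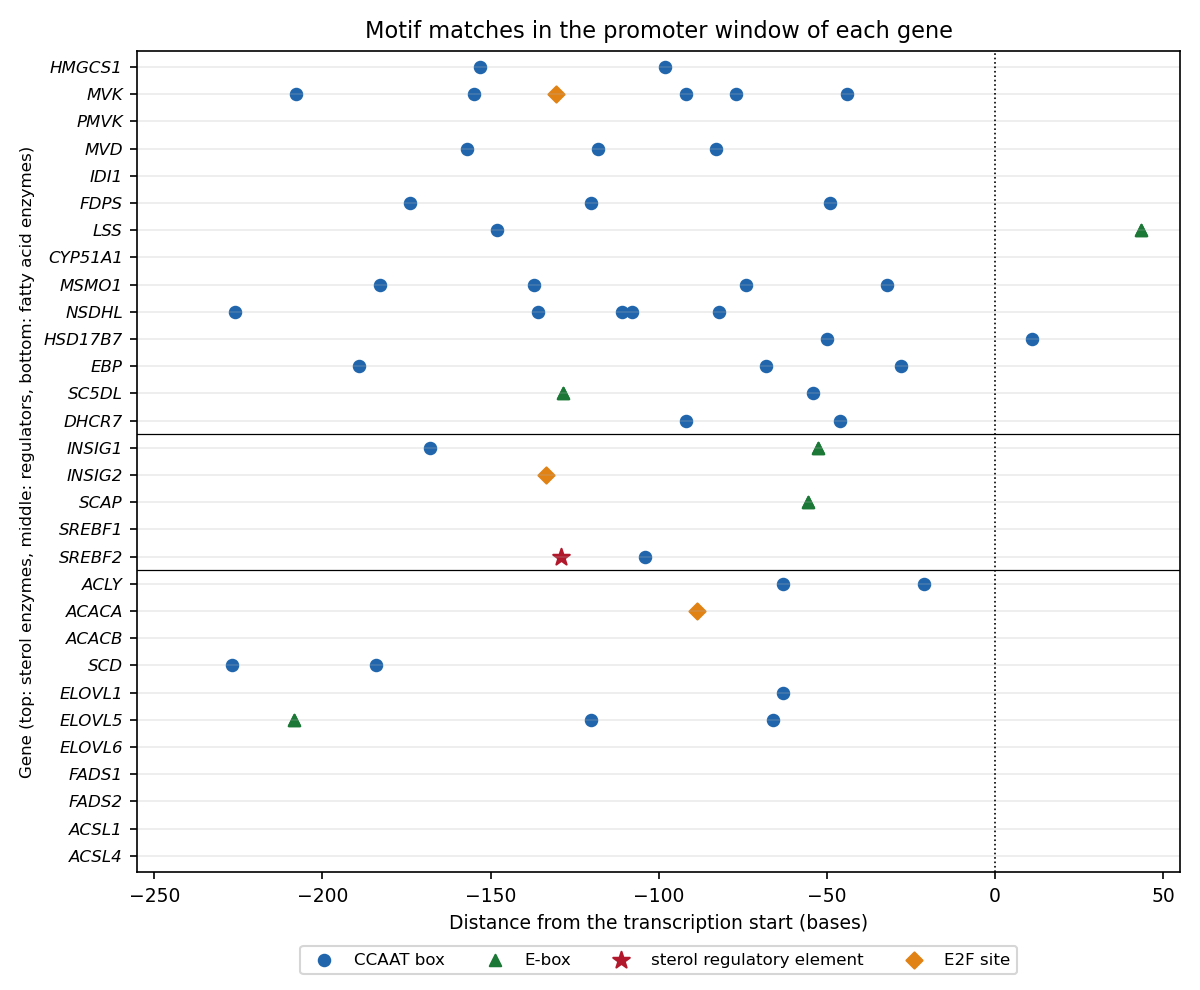
Positions of motif matches (x axis, bases from the transcription start) in the RefSeq promoter window of each gene (y axis, 30 genes, grouped as sterol enzymes, regulators and fatty acid enzymes). Each symbol is 1 match at its centre on either strand; GC boxes are not drawn. CCAAT boxes appear in 11 of 14 sterol enzyme windows and 4 of 11 fatty acid enzyme windows.

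No lipid gene passed the test over all genes tested. All 33 averaged 1 FPKM or more, so the filter on low genes removed none. The lipid genes ran from SCD, FADS2 and FASN, at the 98.6, 98.4 and 98.3 percentile of the levels of all genes tested, down to ACSL4 at 47.9 and ACACB at 14.7. With limma, 0 of 33 had an adjusted p of 0.05 or less (lowest 0.111), where 0.417% of all 14401 genes tested passed in either direction, and 11 of 33 had an unadjusted p under 0.05, against 28.4% of all genes tested. When small RNA genes were left out of the fit, 1 lipid gene was called higher, SC5DL, and 1 lower, ACSL4. Over the 13928 genes left, 4.17% were called higher and 6.36% lower, so 1 of 33 in each direction is no more than the background.

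The siE2F1 value lay above both controls for 18 of the 33 genes, below both for 10 and between them for 5. Over all genes tested, 43.7% lay above both and 39.7% below both. A stricter count asked that siE2F1 lie farther from the nearer control than the controls lay from each other: 14 genes were above on that rule (30.4% of all genes tested) and 6 below (29.1%). On the FPKM + 1 scale, those at least 25% above both controls were HMGCS1, SC5DL, ACACA and ACSL1 (8.91% of all genes tested), and those at least 20% below both were FADS1 and ACSL4 (10.5%). The median absolute log2 fold change of the lipid genes was 0.19, against 0.18 over all genes tested. The lipid genes thus differed from the controls about as much as other genes did.

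**Figure D2:**
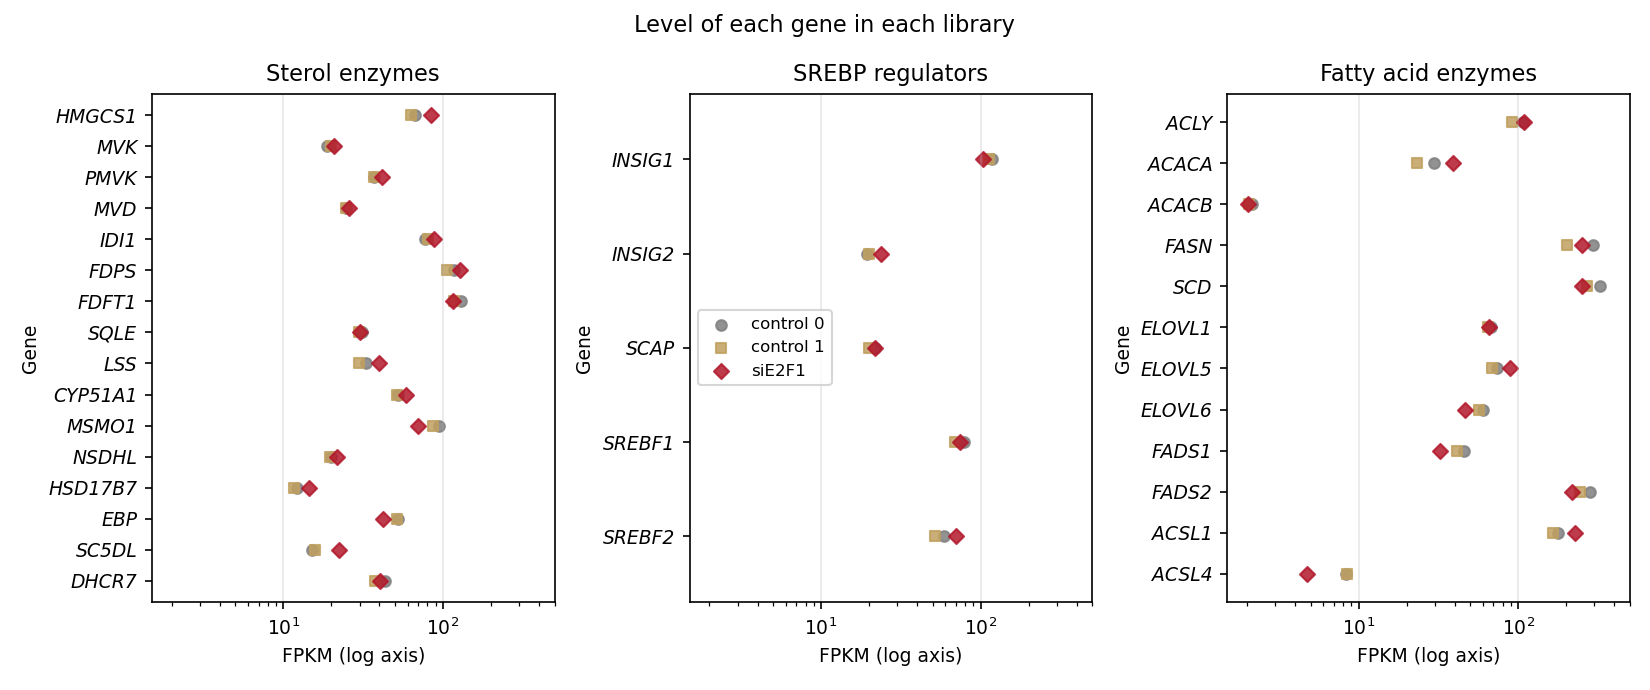
Level of each gene in FPKM (x axis, log scale) in control 0, control 1 and siE2F1, with 1 point per library and no replicate of siE2F1. FASN, SCD and FADS2 are above 200 FPKM in each library and ACACB is near 2 FPKM.

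The controls themselves differed in a shared direction. Of the 33 genes, 28 (84.8%) were lower in control 1 than in control 0, against 48.9% of all genes tested. The gap was widest for FASN, at 294 and 203 FPKM, a difference of -0.53 on the log2(FPKM + 1) scale. The median difference, control 1 minus control 0, was -0.13 for fatty acid enzymes, -0.11 for regulators and -0.04 for sterol enzymes, against 0.0021 over all genes tested. Summed over the fatty acid enzymes, the level was 1471 FPKM in control 0, 1237 in control 1 and 1337 in siE2F1. The siE2F1 sum therefore lay between the controls. For sterol enzymes the sums were 824.9, 783.2 and 842.6 FPKM, with siE2F1 the highest of the 3. It lay nearer to control 0 than the controls lay to each other.

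Most of the 16 sterol enzymes were somewhat higher in siE2F1 than in the controls. Of these, 11 lay above both controls, 3 below and 2 between, where 43.7% of all genes tested lay above both and 39.7% below both. By more than the gap between the controls, 9 lay above and 2 below (30.4% and 29.1% of all genes tested). Their median log2 fold change was 0.14, and 0.13 against each control alone, while the median over all genes tested was 0.01. None passed limma over all genes tested, and 5 of 16 had an unadjusted p under 0.05, against 28.4% of all genes tested.

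Of the 33 genes, the 6 on the way to farnesyl diphosphate were each above both controls, with log2 fold changes from 0.05 to 0.37. By more than the gap between the controls, 4 of them were above. Over all genes tested, 43.7% lay above both controls and 30.4% did so by more than that gap. They are not all the enzymes of that part of the route. HMGCS1, which builds HMG-CoA and so feeds the mevalonate route, was at 67.1 FPKM in control 0, 63.5 in control 1 and 84.4 in siE2F1. Its siE2F1 value was 1.29-fold above the control mean and clear of both controls, but the call was not made (log2 fold change 0.37, standard error 0.07, limma adjusted p = 0.131). The kinases came next: MVK, which phosphorylates mevalonate, was at 18.8, 19.9 and 20.8 FPKM, and its siE2F1 value lay no farther from control 1 than the controls lay from each other. PMVK, which phosphorylates the product of MVK, was at 36.9, 36.9 and 41.7 FPKM, so the controls nearly coincided and siE2F1 stood above them. MVD, the decarboxylase that yields isopentenyl diphosphate, was at 24.9, 24.5 and 25.6 FPKM. IDI1, the isomerase of that product, was at 77.1, 80.7 and 87.6 FPKM. FDPS, which joins isoprene units to farnesyl diphosphate, was at 117, 106 and 127 FPKM, and the controls differed by more than siE2F1 did from control 0. In RefSeq, IDI1, FDPS, CYP51A1, HSD17B7 and SCD have pseudogenes of their name that can share reads, and 22 of the 33 genes overlap another gene, among them MIR33B within SREBF1 and MIR33A within SREBF2. Overlap here is of whole gene spans, and whether reads were shared was not tested. The values of these genes may be less certain for that reason.

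The 3 enzymes around squalene lay on different sides of the controls. FDFT1, squalene synthase and the first step committed to sterols, was at 129, 118 and 116 FPKM, just below control 1. SQLE, squalene epoxidase and a rate-limiting step of the sterol branch, was at 31.2, 29.9 and 30.045 FPKM, between the controls. LSS, which closes the rings to lanosterol, was at 33.2 and 29.8 FPKM in the control pair and 39.8 FPKM after silencing. Only LSS of the 3 lay outside the controls by more than their gap (log2 fold change 0.33, standard error 0.10, limma adjusted p = 0.18).

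After lanosterol, neighbouring steps lay on opposite sides of the controls. SC5DL, the desaturase late in the route, had the highest fold change of the sterol enzymes, with 15.1 and 15.8 FPKM in the control pair and 22.2 FPKM after silencing. It was 1.41-fold higher, with a log2 fold change of 0.49 and a standard error of 0.07. Its limma adjusted p was 0.111 over all genes tested and 0.0409 once small RNA genes were left out. CYP51A1, the lanosterol demethylase, was at 52.0, 51.8 and 58.8 FPKM, above a pair of nearly equal controls. The next 3 enzymes act in turn to remove methyl groups. MSMO1, the oxidase of that series, was at 94.9 and 86.8 FPKM in the control pair and 70.2 FPKM after silencing (log2 fold change -0.36, adjusted p = 0.152). NSDHL, the dehydrogenase, was at 19.8, 19.6 and 21.6 FPKM. HSD17B7, the reductase, was at 12.3, 11.7 and 14.4 FPKM. The oxidase was thus below both controls and its partners NSDHL and HSD17B7 above both. EBP, the sterol isomerase, was at 52.3 and 51.6 FPKM in the control pair and 42.1 FPKM after silencing (log2 fold change -0.30, adjusted p = 0.132), lower than both by more than the gap between them. DHCR7, the last reductase before cholesterol, was at 43.6, 37.2 and 40.1 FPKM, between the controls. MSMO1 and SC5DL, the lowest and the highest of the sterol enzymes by fold change, both hold CCAAT boxes in the stretches printed above.

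**Figure D3:**
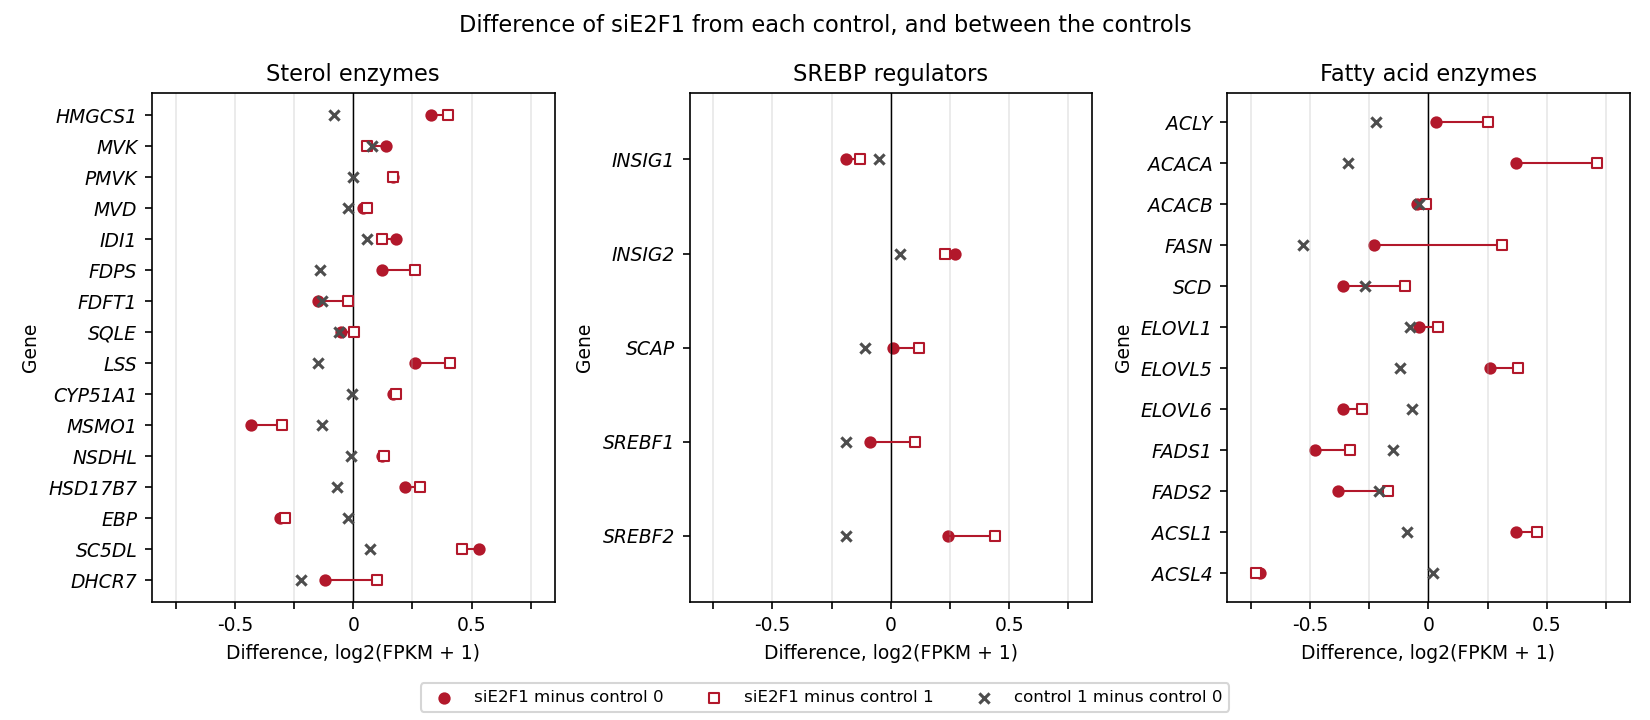
Differences on the log2(FPKM + 1) scale (x axis) for each gene (y axis): siE2F1 minus control 0 (filled circles), siE2F1 minus control 1 (open squares) and control 1 minus control 0 (crosses). ACSL4 sits at -0.71 and -0.73 and SC5DL at 0.53 and 0.46, both far from their crosses, while the FASN circles and squares fall on opposite sides of 0.

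Among the regulators, SREBF2 and INSIG2 were above both controls and INSIG1 below. SREBF2, the sterol-directed SREBP, was at 59.2 and 51.6 FPKM in the control pair and 70.2 FPKM after silencing (log2 fold change 0.34, standard error 0.12, limma adjusted p = 0.212). SREBF1, the fatty acid-directed SREBP, was at 79.1, 69.1 and 74.2 FPKM and lay between the controls. The ratio of SREBF1 to SREBF2 was 1.34 in each control and 1.06 in siE2F1. The ratio had no spread between the controls at this rounding, although each gene differed by -0.19 between them.

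INSIG1, a retention protein and itself an SREBP target, was at 118, 113 and 103 FPKM (log2 fold change -0.16, adjusted p = 0.259). INSIG2, its relative, which also retains SCAP, was at 19.5, 20.0 and 23.7 FPKM (log2 fold change 0.25, adjusted p = 0.151). Each lay outside the controls by more than their gap, in opposite directions, and the ratio of INSIG1 to INSIG2 was 6.05 and 5.66 in the control pair and 4.36 after silencing. SCAP, the escort, was at 21.7, 20.1 and 21.9 FPKM, only 0.01 above control 0. The median log2 fold change of the 5 regulators was 0.07, with 0.01 and 0.12 against control 0 and control 1 alone. In their promoter windows SREBF2 carries the sterol regulatory element and INSIG2 the E2F site shown above.

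**Figure D4:**
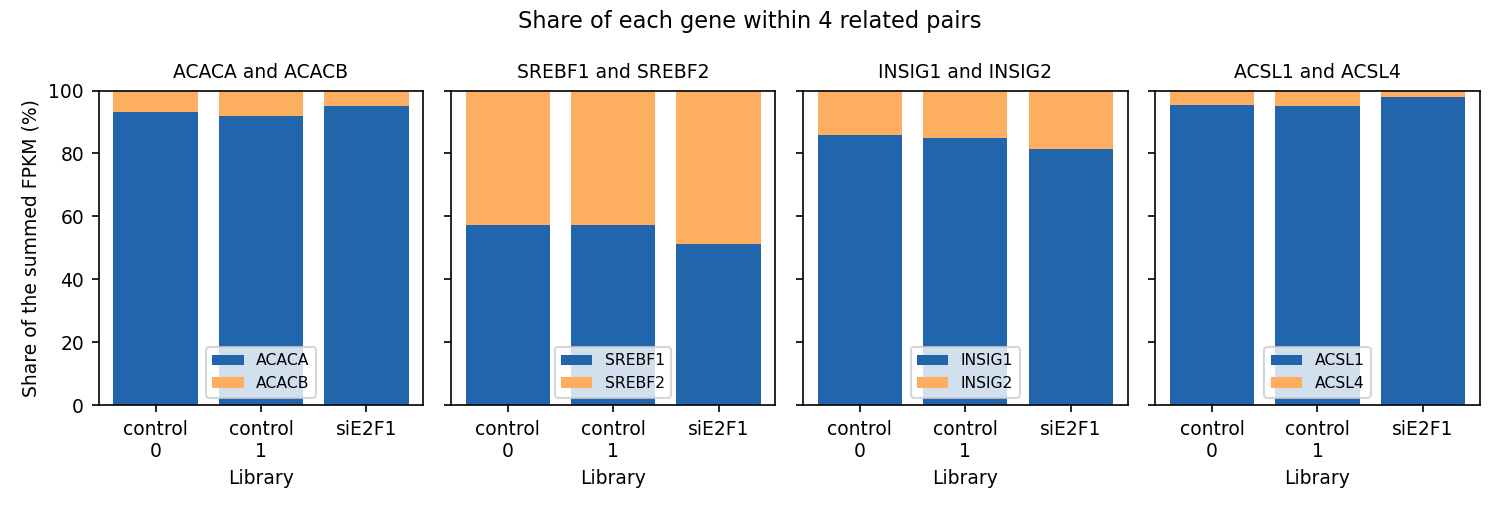
Share of each gene in the summed FPKM of 4 related pairs (y axis, percent) in each library (x axis); the bars start at 0 and show single libraries with no error. SREBF1 holds 57.2% of its pair in both controls and 51.4% in siE2F1, and INSIG1 holds 85.8% of its pair in control 0 and 81.3% in siE2F1.

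Fatty acid enzymes divided in both directions. Of the 12, 4 lay above both controls, 6 below and 2 between, where 43.7% of all genes tested lay above both and 39.7% below both. By more than the gap between the controls, 3 lay above and 3 below (30.4% and 29.1% of all genes tested). Their median log2 fold change was -0.02, with -0.14 against control 0 and 0.01 against control 1, so its sign depended on the control used. None passed limma over all genes tested, and 5 of 12 had an unadjusted p under 0.05, against 28.4% of all genes tested.

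Of the carbon supply and chain-building enzymes, FASN and ACACA had the widest control differences of the 33 genes, -0.53 and -0.34. For ACACB the controls differed by only -0.04. ACLY, which makes cytosolic acetyl-CoA from citrate, was at 107, 91.7 and 109 FPKM. ACACA, the cytosolic acetyl-CoA carboxylase that makes malonyl-CoA for synthesis, was at 29.8 and 23.3 FPKM in the control pair and 38.8 FPKM after silencing. It had the highest log2 fold change of the 33 genes, 0.54 (standard error 0.19, limma adjusted p = 0.213), and was 0.37 above control 0 and 0.71 above control 1. ACACB, the mitochondrial carboxylase that restrains fatty acid oxidation, was the lowest of the 33 genes at 2.15, 2.06 and 2.04 FPKM. ACACA made up 93.3% and 91.9% of the summed FPKM of both carboxylases in the controls and 95.0% in siE2F1. FASN, the synthase that assembles palmitate, was at 294, 203 and 251 FPKM, so siE2F1 lay between controls that were themselves far apart.

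Of the 6 desaturation and elongation enzymes, 4 were below both controls, where 39.7% of all genes tested were. By more than the gap between the controls, 2 were below and 1 above (29.1% and 30.4% of all genes tested). FADS1, the desaturase that forms arachidonic acid, was at 45.7 and 41.1 FPKM in the control pair and 32.6 FPKM after silencing, or 1.32-fold lower than the controls (log2 fold change -0.40, standard error 0.10, limma adjusted p = 0.15). ELOVL6, which extends palmitate, was at 59.8, 56.8 and 46.5 FPKM (log2 fold change -0.32, adjusted p = 0.14). FADS2, the first desaturase of the polyunsaturated route, was at 282, 244 and 217 FPKM. SCD, the stearoyl-CoA desaturase that makes oleate, was at 324, 269 and 252 FPKM. For FADS2 and SCD the distance to control 1 was smaller than the gap between the controls. FADS1 and FADS2 overlap each other in RefSeq, and the library kit is not one that marks strand, so reads in the shared part may not be told apart. Whether reads were shared was not tested.

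The remaining enzymes of this step were not below both controls. ELOVL5, which extends polyunsaturated chains, was at 74.0, 68.0 and 88.9 FPKM, above both controls (log2 fold change 0.32, standard error 0.09, limma adjusted p = 0.165). ELOVL1, which extends very long saturated chains, was at 67.9, 64.2 and 66.0 FPKM, between the controls. The median log2 fold change of the 6 was -0.25, with -0.36 against control 0 and -0.13 against control 1. Between the controls the median was also -0.13 (control 1 minus control 0). These are medians of signed differences, not of distances, and ELOVL5 at 0.38 above control 1 offsets lower genes in them.

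The acyl-CoA synthetases, which activate free fatty acids, lay furthest apart. ACSL4, which prefers arachidonic acid and other polyunsaturated chains, was at 8.38 and 8.48 FPKM in the control pair and 4.73 FPKM after silencing. It had the lowest log2 fold change of the 33 genes, -0.72 with a standard error of 0.06, or 1.64-fold lower, with a limma adjusted p of 0.111 over all genes tested and 0.0325 once small RNA genes were left out. The controls differed by 0.02 on the same scale. ACSL1, which activates many long-chain fatty acids, was at 176 and 166 FPKM in the control pair and 228 FPKM after silencing (log2 fold change 0.42, standard error 0.08, adjusted p = 0.127, and 0.052 without small RNA genes). The ratio of ACSL1 to ACSL4 was 21.0 and 19.6 in the control pair and 48.2 after silencing. The ACSL4 stretch printed above holds none of the marked motifs. The windows of ACSL1 and FADS1, which are not printed, also held none of them. The same was true of PMVK, IDI1, CYP51A1, SREBF1, ACACB, ELOVL6 and FADS2, so this was not particular to genes with larger changes.

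Set side by side, the median of the sterol enzymes exceeded that of the fatty acid enzymes by 0.16 on the log2 scale. The difference was 0.27 against control 0 and 0.11 against control 1, and between the controls it was 0.10 (control 1 minus control 0). The excess of sterol over fatty acid enzymes was therefore of similar size between the controls and between siE2F1 and control 1. No test over the genes was made, since enzymes of a route are not replicates of a condition.

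**Figure D5:**
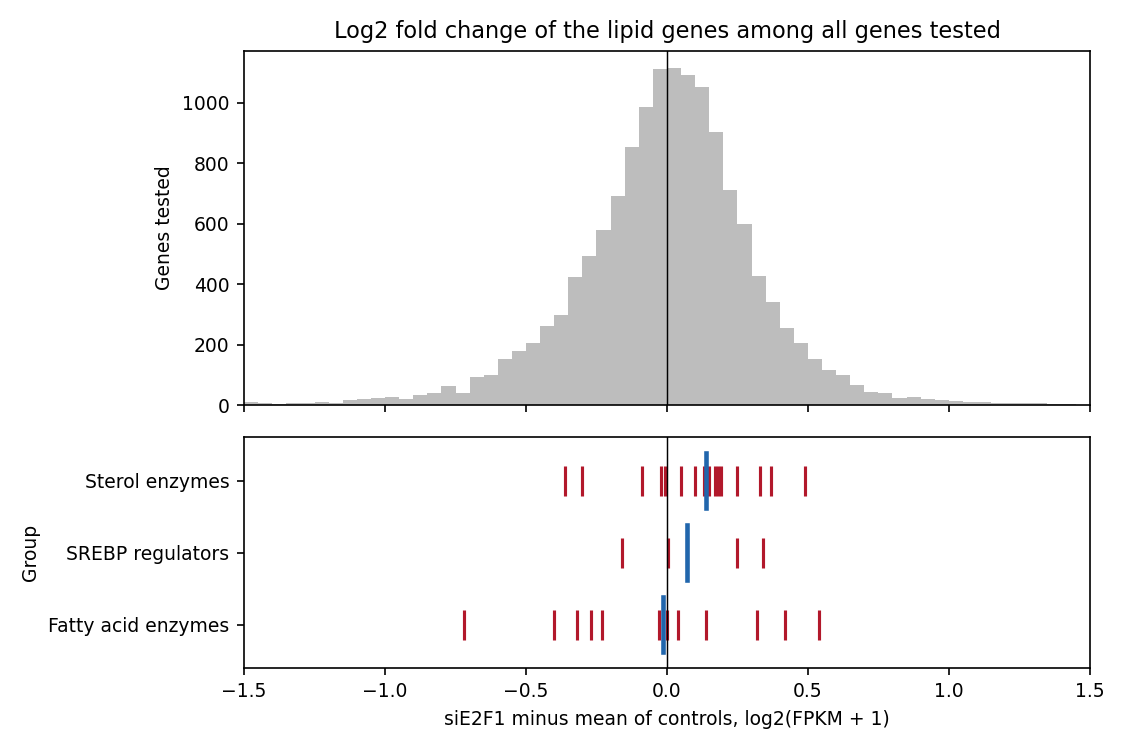
Top, number of genes tested (y axis) by log2 fold change, siE2F1 minus the mean of the controls (x axis, log2(FPKM + 1)); 254 genes beyond 1.5 in either direction are not drawn. Bottom, each red tick is 1 lipid gene and each blue line the median of its group, 0.14 for sterol enzymes, 0.07 for regulators and -0.02 for fatty acid enzymes.

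Other genes of the same pathways gave no calls over all genes tested, but some when small RNA genes were left out. In 7 further lists, limma called 0 members over all genes tested, and the numbers at an unadjusted p under 0.05 were 1 of 9 for other sterol synthesis, 3 of 13 for SREBP processing, 8 of 12 for sterol uptake, transport and storage, 1 of 5 for LXR and efflux, 7 of 16 for other fatty acid synthesis, 4 of 14 for glycerolipid synthesis and 7 of 21 for fatty acid oxidation, against 28.4% of all genes tested. Of the 9 other sterol synthesis genes, 4 lay above both controls, 3 below and 2 between, with a median log2 fold change of -0.00063, against 0.14 for the 16 sterol enzymes. DHDDS, a subunit of the enzyme that builds dolichol from isoprene units, was at 6.69 and 6.56 FPKM in the control pair and 7.66 FPKM after silencing, a log2 fold change of 0.18. Of 13 SREBP processing genes, 12 lay above both controls and 0 below, with a median log2 fold change of 0.14, where 43.7% of all genes tested lay above both and the median was 0.01. SEC24C, a cargo adaptor of the vesicles that leave the endoplasmic reticulum, was at 51.3, 42.8 and 63.3 FPKM, and ERLIN1, a membrane scaffold of the endoplasmic reticulum that restrains SREBP, at 4.92, 4.95 and 6.66 FPKM.

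Uptake and lysosomal genes lay on both sides of the controls. LRP8, a lipoprotein receptor, was at 5.17 and 4.31 FPKM in the control pair and 2.59 FPKM after silencing (log2 fold change -0.67), and NPC1, which exports cholesterol from lysosomes, at 6.88, 5.43 and 9.67 FPKM (log2 fold change 0.58). Without small RNA genes limma called LIPA, the lysosomal acid lipase, higher (0.53, adjusted p = 0.0388) and LRP8 and TMEM97, a binding partner of NPC1, lower (-0.67 and -0.57, adjusted p = 0.0489 and 0.0403). That is 1 higher and 2 lower of 12 genes of the list, where 4.17% of all genes in that fit were called higher and 6.36% lower. NR1H3, the sterol-sensing receptor LXR-alpha, was at 7.87 and 8.63 FPKM in the control pair and 5.12 FPKM after silencing and was called lower in that fit (-0.60, adjusted p = 0.0402). It was the only 1 of 5 LXR and efflux genes called. ABCA1, an LXR target that exports cholesterol, was at 5.46, 4.93 and 5.86 FPKM. LIPA and TMEM97 were picked with their values known.

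On the fatty acid side, SLC25A1, the mitochondrial citrate carrier that feeds ACLY, was at 78.5 and 75.4 FPKM in the control pair and 52.2 FPKM after silencing. It was called lower without small RNA genes (log2 fold change -0.55, limma adjusted p = 0.0374), as were HSD17B12, the ketoreductase of chain elongation (-0.51, adjusted p = 0.0402), and the elongase ELOVL7 (-0.46, adjusted p = 0.0436). In glycerolipid synthesis DGAT2, which makes triglyceride, was called lower in that fit (-0.52, adjusted p = 0.0453), and GPAM, the first acyltransferase, had a log2 fold change of 0.41. In fatty acid oxidation HADHB, a subunit of the trifunctional protein, was at 88.0, 85.1 and 124.7 FPKM, and ECI2, an isomerase of unsaturated chains, at 96.1, 94.3 and 130.5 FPKM. Both were called higher without small RNA genes (0.52 and 0.45, adjusted p = 0.0384 and 0.041), and ETFB, a subunit of its electron carrier, was called lower (-0.44, adjusted p = 0.0424). Without small RNA genes, 3 of 16 other fatty acid synthesis genes, 1 of 14 glycerolipid genes and 1 of 21 oxidation genes were called lower. Of the oxidation genes, 2 were called higher. Over all genes in that fit, 4.17% were called higher and 6.36% lower. ELOVL7 and ETFB, too, were picked with their values known.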

How the data were processed

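RNA sequencing libraries of 2 control siRNA samples and 1 siE2F1 sample were grouped and numbered by their titles. Each deposited file gives log2 FPKM for 22613 genes. The submitters' processing notes list hg19 as the build and, as tools, Cufflinks 2.0.2 and TopHat2 2.0.4; the sources used here name no annotation. The lowest deposited value equals log2 of 0.1, so FPKM was computed as 2 to the deposited value minus 0.1; were 0.1 a minimum and not an addition, each value would be 0.1 FPKM too low. Sorted values of the libraries differ by at most 0.0653 log2 units, so a shift of most genes together would not show. With no read counts the depth is unknown, and neither counting intervals nor count models were used.

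The 14401 genes that averaged 1 FPKM or more were tested on log2(FPKM + 1) with limma 3.58.1 in R 4.3.3, siE2F1 against control, two-sided, with a mean-variance trend and Benjamini-Hochberg adjustment at 0.05 over all genes tested. The spread comes from the 2 controls alone, with 1 residual degree of freedom per gene, and siE2F1 is assumed to vary as they do. Alternatives were a pseudocount of 0.1, no filter, no small RNA genes (MIR, RNU, SCARNA and SNOR names, but not their host genes), no trend, a common median and each control left out. Every lipid gene is named, and of each further list the called genes or the 2 of largest change; a few genes of these lists are not reported here. The genes, lists, tests and alternatives were chosen with earlier results of these data known. Promoter sequences are from RefSeq, GRCh38.p14; their coordinates were not joined to the hg19 values.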

Additional observations from a re-analysis of the deposited data

How the results depend on the processing

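E2F1 was lower in siE2F1 under each alternative, but its limma call was lost with a pseudocount of 0.1 (log2 fold change -2.59, adjusted p = 0.0601) and when low genes were not filtered out (-2.12, adjusted p = 0.159). The number of lipid genes called was 0 except without small RNA genes, where it was 2. With 1 control left out, values have no test: the median of the fatty acid enzymes ran from -0.14 to 0.01, that of the regulators from 0.01 to 0.12, and sterol minus fatty acid enzymes from 0.11 to 0.27. Of 165 single-gene values under alternatives with a test, 163 kept their direction and their side of the threshold, and the other 2 are the calls of SC5DL and ACSL4. Only the pseudocount of 0.1 altered the fold changes themselves. Under the other alternatives with a test the direction could not change, so this count says little about it. The common median shifted no library (shift 0), so that fit repeats the main one. No paired analysis was possible because there is 1 siE2F1 library and the control numbers name no siE2F1 partner. The single siE2F1 library and the unknown depth limit every value above.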
